A study of Sminthopsis crassicaudata with 9 samples.

Results

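The barrier genes described here were chosen from their values in these libraries. They are the epidermal genes CDSN, SPINK5, TGM3, TGM1, AQP3 and HOPX, the transcription factor gene CEBPA and the protease gene PLAU. Of these 8 genes, 7 had a row under their symbol among the 21703 gene models of the count table; TGM1 had none and was not analysed here. Transcript levels and the peaks around each transcription start site (TSS) are therefore given as descriptions, without tests, and the transcript pattern that led to the choice of genes supports nothing by itself.

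All samples came from the face of newborn fat-tailed dunnarts (Sminthopsis crassicaudata), a mouse-sized marsupial whose young are born at an early stage of development. The ChIP-seq tissue was labelled as collected within 24 hours of birth, and the RNA tissue was collected on the day of birth. RNA-seq was performed on 3 libraries (named FP1, FP2 and FP3), each from a pool of 2 young, and ChIP-seq for H3K4me3 and H3K27ac on 2 pools of 26 and 27 heads, each with its own input DNA. The young were untreated and carried no engineered allele, so that the series holds 1 condition, and the libraries are compared only as replicates. The tissue comprised the fronto-nasal, maxillary and mandibular prominences as whole pieces, so that a change in the share of a cell type cannot be told apart from a change in RNA per cell.

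The outer epidermis becomes a barrier when basal keratinocytes leave the basement membrane, move upward through the suprabasal layers and cornify. Cornifying cells are held together by corneodesmosomes, protein cross-links are laid down beneath their membranes by transglutaminases, and the surface is later shed by proteases that are held in check by inhibitors. C/EBP factors take part in the switch from proliferation to differentiation. H3K4me3 is known as a mark of active promoters and H3K27ac as a mark of both active promoters and enhancers, and H3K27ac without H3K4me3 is the pattern used here for putative enhancers.

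Transcripts of all 7 genes were detected above the threshold of 1 TPM (a length-corrected share of the transcripts of a library) in each library, as were those of 56.5% of all 21692 genes with counts. The 7 genes had a median of 195 TPM, against a median of 3.83 TPM over all genes with counts and 20.6 TPM over the 12250 genes above 1 TPM in all 3 libraries. Mean levels ranged over the set from 18.8 TPM for PLAU to 896 TPM for AQP3. By mean TPM, the order was AQP3, CDSN, SPINK5, HOPX, TGM3, CEBPA and PLAU, with SDs of 33.4% to 77.7% of the mean in all but PLAU. Within each of the 3 libraries, AQP3 was above CDSN, CDSN above SPINK5 and HOPX above TGM3, and PLAU was lowest. The order of SPINK5 and HOPX, and that of TGM3 and CEBPA, changed between libraries.

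CDSN encodes corneodesmosin, the adhesive glycoprotein of corneodesmosomes. It had 151, 693 and 262 TPM in FP1, FP2 and FP3, a mean of 369 ± 286 TPM (SD, n = 3). The library FP2 stood apart from the other two, and the 95% Poisson intervals of the 3 counts, which cover counting error only, did not overlap. SPINK5 encodes LEKTI, an inhibitor of the kallikrein proteases that shed the cornified layer. It had 114, 474 and 213 TPM in FP1, FP2 and FP3, with a mean of 267 ± 186 TPM (SD, n = 3), and its high and low libraries were those of CDSN.

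TGM3 encodes a transglutaminase that cross-links cornified envelope proteins. Its level was 49.9, 218 and 122 TPM in FP1, FP2 and FP3, with a mean of 130 ± 84.2 TPM (SD, n = 3). FP2 was again highest and FP1 lowest. CEBPA encodes C/EBPα, a transcription factor of the differentiating epidermis, and it was measured at 41.9, 220 and 123 TPM in FP1, FP2 and FP3, with a mean of 128 ± 89.2 TPM (SD, n = 3). It showed the widest range of the 7 genes, with a highest level 5.25 times the lowest.

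AQP3 encodes the aquaglyceroporin of keratinocyte membranes, which carries water and glycerol. It had 366, 928 and 1395 TPM in FP1, FP2 and FP3, a mean of 896 ± 515 TPM (SD, n = 3), and FP3 rather than FP2 was its highest library. HOPX encodes a small homeodomain protein that does not bind DNA itself. It varied less, at 123, 250 and 212 TPM in FP1, FP2 and FP3 (mean 195 ± 65.1 TPM, SD, n = 3). PLAU, which encodes the urokinase-type plasminogen activator, had 18.4, 18.6 and 19.4 TPM in FP1, FP2 and FP3, a mean of 18.8 ± 0.530 TPM (SD, n = 3). On the TPM scale, its 3 counts of 378, 315 and 358 reads had overlapping intervals, and no library stood apart.

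**Figure D1:**
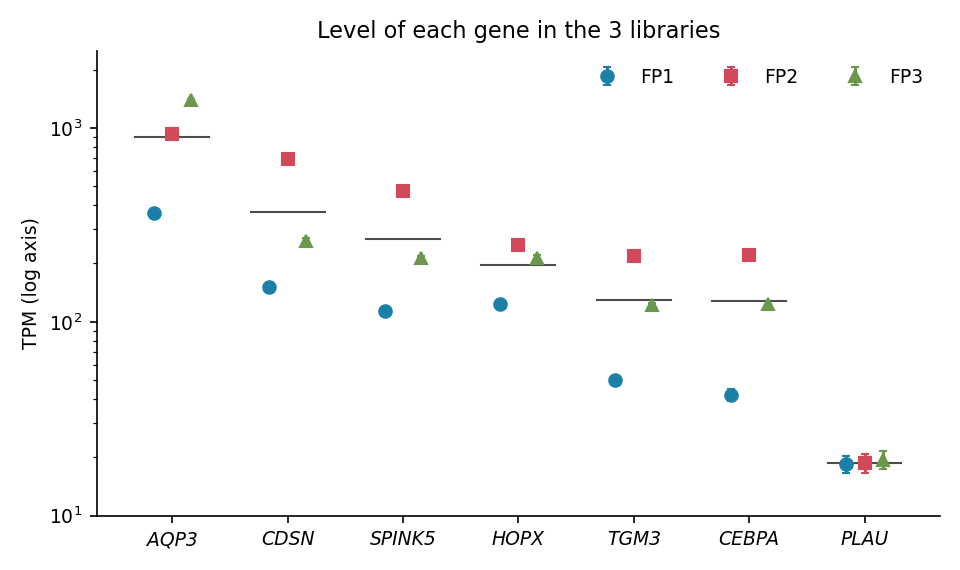
TPM of each gene (log axis) in the libraries FP1 (circles), FP2 (squares) and FP3 (triangles). Bars give the 95% Poisson interval of the count and lines the mean of the 3 libraries; FP1 is lowest for all 7 genes, and the 3 PLAU points lie between 18.4 and 19.4 TPM.

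Of the 7 genes, 5 had their highest TPM in FP2 and 2 in FP3, and all 7 were lowest in FP1. Of the 12250 genes above 1 TPM, 61.2% were highest in FP2, 11.8% were highest in FP3 and 39.1% were lowest in FP1. The median gene above 1 TPM had 1.19 times as much TPM in FP2 as in FP1, a shift of 0.25 on the log2 scale that disappeared on rescaling with TMM factors (median log2 ratio -0.0050), after which 31.2% of genes were highest in FP2, 32.8% were highest in FP3 and 37.5% were lowest in FP1. On the rescaled values 4 of the 7 genes were highest in FP2 and 3 in FP3, HOPX having moved to FP3, and 6 were lowest in FP1, PLAU being lowest in FP2.

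The size of the difference, which is part of what the genes were chosen on, was less common. CDSN, SPINK5, TGM3 and CEBPA had 4.60, 4.15, 4.36 and 5.25 times as much TPM in FP2 as in FP1, where 0.980% of genes above 1 TPM reached a ratio of 4. With AQP3 at 2.53 and HOPX at 2.03, 6 of the 7 genes reached a ratio of 2, as did 8.74% of genes above 1 TPM. PLAU had a ratio of 1.01. In FP3, TGM3, AQP3 and CEBPA reached 2 times their TPM in FP1, as did 3.01% of genes. After TMM scaling the ratios of CDSN, SPINK5, TGM3 and CEBPA were 3.86, 3.49, 3.66 and 4.41, so that CEBPA alone reached 4, against 0.588% of genes, and 5 of the 7 genes reached 2, against 4.79%. Without FP2, the means of CDSN, SPINK5, TGM3 and CEBPA were 206, 163, 85.8 and 82.5 TPM, each more than 1.5 times lower than with it. Among genes within 1.5-fold of the same mean TPM, the coefficient of variation of CDSN (77.7%) compared with a median of 15.7% over 316 genes. That of PLAU (2.82%) compared with a median of 22.0% over 2788 genes. The Poisson interval of PLAU in FP1, 16.6 to 20.3 TPM, held all 3 of its TPM values, so the 2.82% does not show a steadier gene. After TMM scaling PLAU had 18.9, 16.1 and 21.4 TPM in FP1, FP2 and FP3, 1.33 times as much in FP3 as in FP2. Its coefficient of variation was not computed on that scale.

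The genes with a symbol, above 10 TPM in each library, whose pattern over the 3 libraries lay nearest to the mean pattern of the 7 genes were BPGM, ATP6V1H and ALOX12B, with distances of 0.030, 0.043 and 0.047 on the centred log2 scale among 6979 candidates. ALOX12B, an epidermal lipoxygenase of the barrier lipid pathway, had 22.8, 72.0 and 47.9 TPM in FP1, FP2 and FP3. Over only 3 libraries, many genes can share a pattern, and the distances of CDSN, AQP3 and PLAU themselves to the mean pattern were 0.62, 0.84 and 1.12.

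The levels of related genes were read in the same libraries, as ratios of FP2 to FP1. For every list below, counts at a ratio of 2 stand beside 8.74% of genes above 1 TPM (4.79% after TMM scaling). Counts of expressed genes stand beside 56.5% of all genes with counts. The desmosomal cadherin genes DSG1, DSG2, DSG3, DSC1, DSC2 and DSC3 had no row under their symbols. Among 6 corneodesmosome and desmosome genes other than CDSN, 5 had at least 2 times as much TPM in FP2 as in FP1, with a median ratio of 2.17, against 8.74% of genes above 1 TPM. After TMM scaling 2 of the 6 reached this ratio, with a median of 1.83, against 4.79% of genes. The most abundant of them were JUP (plakoglobin), at 323, 668 and 654 TPM in FP1, FP2 and FP3, and PERP, a desmosomal membrane protein, at 315, 682 and 620 TPM. Among 14 genes of barrier lipid synthesis and transport, 9 reached this ratio, before and after TMM scaling, and the median was 2.70 (2.26 after scaling), but the most abundant members, SULT2B1 at 660, 585 and 635 TPM and ELOVL1 at 443, 479 and 544 TPM in FP1, FP2 and FP3, did not.

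Of 13 cornified envelope genes, 5 had a row, while LORICRIN, IVL, FLG and FLG2 were among those without one under their symbols. The 5 genes had a median ratio of 2.48 (2.08 after TMM scaling), and 3 of them reached 2 on either scale. CSTA, which encodes the protease inhibitor cystatin A, had 573, 1419 and 1047 TPM in FP1, FP2 and FP3, while S100A11 had 1878, 1347 and 1965 TPM. The barrier transcription factors were all expressed (18 of 18), with 8 at a ratio of 2 or more and a median of 1.88, and with 5 and 1.58 after TMM scaling. KLF4, a factor required for barrier formation in the mouse, had 91.2, 196 and 167 TPM in FP1, FP2 and FP3.

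Among proteases and inhibitors of desquamation other than SPINK5, 3 of 6 expressed genes reached a ratio of 2, and 2 of 6 after TMM scaling. SPINT2, a membrane-bound serine protease inhibitor, was the most abundant and was similar in FP1, FP2 and FP3 at 577, 550 and 653 TPM. KLK5, a kallikrein that SPINK5 products inhibit, did not reach 1 TPM in all libraries, with 0.598, 5.09 and 0.711 TPM in FP1, FP2 and FP3, and KLK7 had no row under its symbol. In the C/EBP family, CEBPD was the most abundant and had 271, 291 and 382 TPM in FP1, FP2 and FP3. Of the 3 expressed members other than CEBPA, CEBPD among them, none reached a ratio of 2. CEBPB and CEBPE had no row under these symbols.

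Relatives of TGM3, AQP3 and PLAU spanned a wide range of levels. TGM2, the tissue transglutaminase, had a mean of 10.5 ± 1.27 TPM (SD, n = 3). Of the 3 transglutaminase genes with a row other than TGM3, TGM2 among them, none reached a ratio of 2. AQP7 had a mean of 27.3 ± 2.78 TPM (SD, n = 3), while AQP8, AQP9 and MIP did not pass 1 TPM in all libraries. Of 10 genes of plasminogen activation, 9 were expressed and PLG, the zymogen that urokinase cleaves, was not. The most abundant were SERPINB5, a serpin of epithelial cells, at 117, 201 and 262 TPM in FP1, FP2 and FP3, and SERPINE2, at 39.7, 59.7 and 46.9 TPM.

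Markers of the basal layer and the periderm gave other values. KRT14, the basal keratin, had 4372, 2965 and 5840 TPM in FP1, FP2 and FP3 and was therefore lowest where CDSN was highest. It did not stand for its whole list. CDH3 was nearly level at 88.2, 87.8 and 98.5 TPM, and TP63 was higher in FP2 and FP3, at 28.2, 70.2 and 73.3 TPM. The 8 basal keratinocyte genes with a row had a median ratio of FP2 to FP1 of 1.10 (0.924 after TMM scaling), and 1 of them, TP63, reached 2 on either scale. Of 13 periderm genes, 3 reached a ratio of 2 (2 after TMM scaling) and the median was 1.12 (0.942 after scaling). The most abundant differed, with KRT17 at 8859, 5957 and 8473 TPM and KRT13 at 1645, 3050 and 3087 TPM in FP1, FP2 and FP3. Of the suprabasal keratinocyte markers, 4 of 11 had a row; KRTDAP (1494, 1514 and 1370 TPM) and LYPD3 (829, 637 and 867 TPM) were abundant in all libraries, and the median ratio over the 4 genes was 1.02 (0.855 after TMM scaling). SBSN (suprabasin), singled out after its values were seen, reached a ratio of 2, with 416, 1126 and 790 TPM in FP1, FP2 and FP3. KRT1 and KRT10, which define the suprabasal layers, and KRT5, the partner of KRT14, had no row under their symbols. The label of barrier genes therefore rests on the genes named here, and the set was not assigned to a layer of the epidermis.

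Markers of other cell types also differed between libraries. The summed level of 7 facial mesenchyme genes was 2419, 3648 and 1835 TPM in FP1, FP2 and FP3. That of 5 skeletal muscle genes was 14040, 11260 and 15910 TPM, and that of 5 cartilage genes 65.8, 163 and 65.0 TPM. Of 4 expressed cartilage genes, 3 reached a ratio of FP2 to FP1 of 2, before and after TMM scaling. Their median ratio was 2.62 (2.20 after scaling), against 2.70 (2.26) for the barrier lipid genes. The 3 erythroid genes with a row summed to 5428, 7380 and 9600 TPM, whereas the lung genes SFTPC, SFTPB and NKX2-1 did not pass 1 TPM in all libraries. The heart and lung list also holds TNNT2, which fetal skeletal muscle expresses too, at 332, 292 and 644 TPM, and NKX2-5, at 70.4, 73.9 and 163 TPM in FP1, FP2 and FP3, both highest in FP3, as was AQP3. Among the general epithelium genes, 6 of 7 had a row and the median ratio of FP2 to FP1 was 1.80 (1.51 after TMM scaling). A ratio of 2 was reached by 2 of the 6, ESRP1 and CDH1, and by 1 after scaling. ESRP2, a splicing factor of epithelial cells, had 302, 296 and 342 TPM and CLDN4, a tight junction claudin, 61.7, 123 and 118 TPM in FP1, FP2 and FP3. Endothelial genes (4 of 5 with a row) summed to 94.2, 73.6 and 66.3 TPM, myeloid genes (4 of 5) to 20.9, 24.3 and 11.6 TPM and neuronal genes (5 of 5) to 68.7, 85.6 and 81.2 TPM. The part of tissue composition in the differences between libraries was not tested. Library totals were 16096971 to 17419099 counts.

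**Figure D2:**
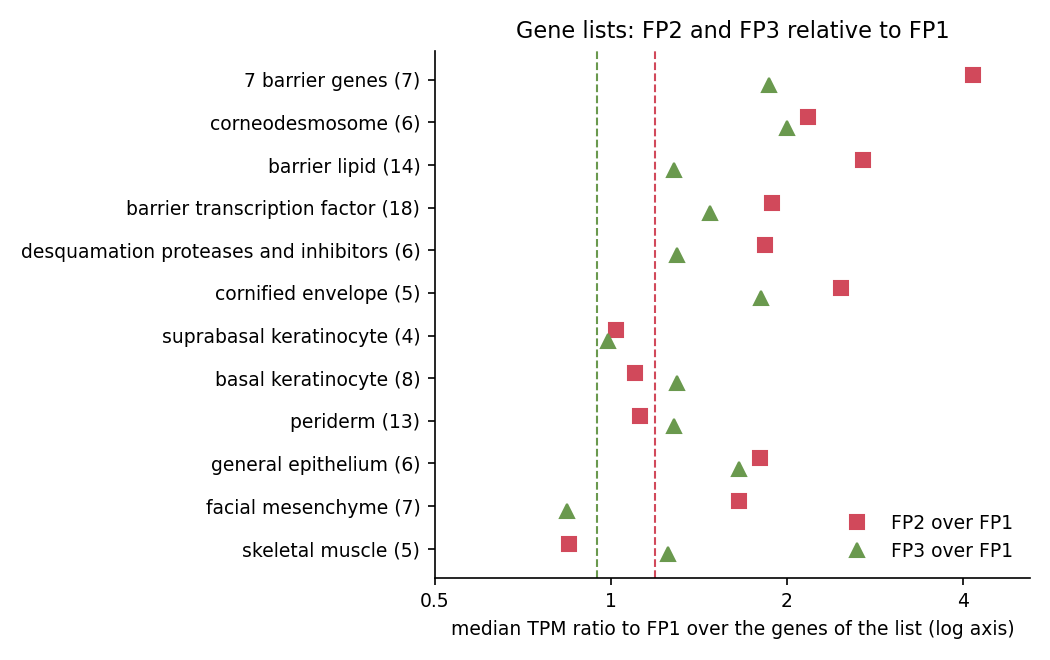
Median TPM ratio to FP1 (log axis) over the expressed genes of each list shown. FP2 is drawn as squares and FP3 as triangles, with the number of genes in parentheses. The 7 barrier genes are left out of the other lists. The cartilage list is not drawn and had a median ratio of FP2 to FP1 of 2.62 over 4 expressed genes. Dashed lines give the median of all genes above 1 TPM, 1.19 for FP2 and 0.947 for FP3; barrier lipid genes lie at 2.70 for FP2 and basal keratinocyte genes at 1.10.

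A peak was taken as reproducible when a replicate 1 interval and a replicate 2 interval, both at q below 0.05, had an overlap of 50% or more of one of them, and fold enrichments are over input. Across the 7 windows of 100 kb on either side of the TSS, there were 85 H3K4me3 peaks and 161 H3K27ac peaks, and 88 of these H3K27ac peaks lay wholly outside reproducible H3K4me3 (H3K27ac-only). The median gene of the set had 12 H3K4me3, 23 H3K27ac and 13 H3K27ac-only peaks in its window, against 11, 18 and 6 for the genes above 1 TPM. Since the windows hold other genes, only 43 H3K4me3 and 77 H3K27ac peaks had one of the 7 TSSs as the nearest, and 40 of the 77 were H3K27ac-only. Over the whole series, 69124 of 148724 reproducible H3K27ac peaks were H3K27ac-only. All 7 windows held an H3K27ac-only peak, as did 95.0% of those of genes above 1 TPM, and each of the 7 TSSs was the nearest to at least 1, as were 68.3%. Of the 40 H3K27ac-only peaks nearest to the 7 TSSs, 20 also shared no base with an H3K4me3 peak of either single replicate, a stricter definition added after the data were seen. The share over the whole series was not computed for this definition, so the loss cannot be called particular to the set.

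A reproducible H3K4me3 peak lay within 1 kb of the TSS in 5 of the 7 genes, against 88.2% of genes above 1 TPM. H3K27ac lay within 1 kb in 6 of 7, against 89.9%. The H3K4me3 peaks were mostly weak for the transcript levels. In 6 of the 7 genes, the mean fold enrichment was absent or below the lower quartile of genes within 1.5-fold of the same TPM that had such a peak, as was the case for 33.9% of genes above 1 TPM. PLAU was the exception.

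**Figure D3:**
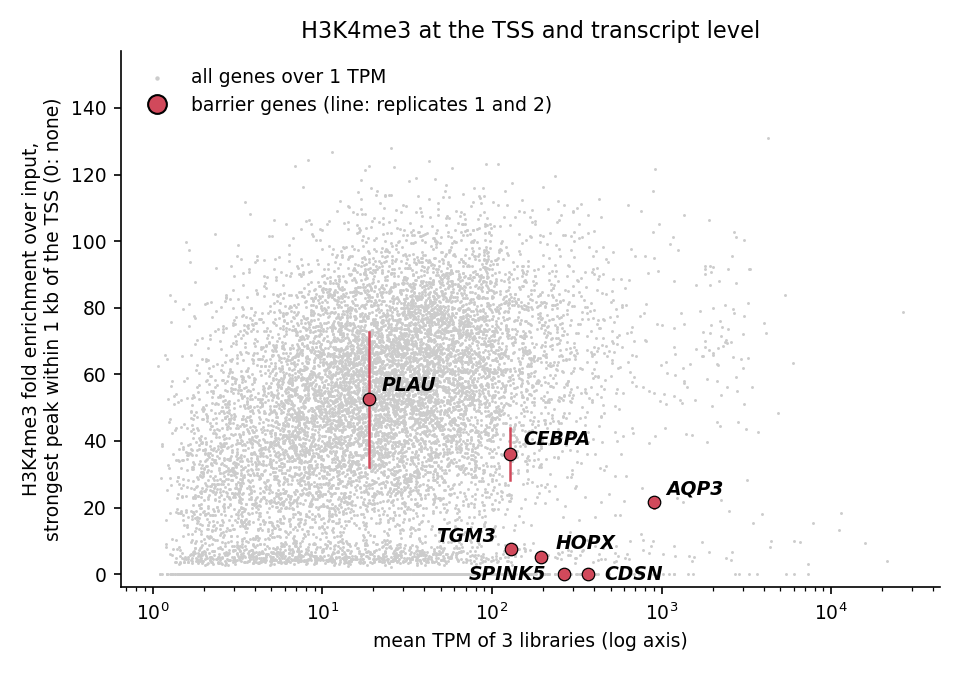
Mean fold enrichment over input of the strongest reproducible H3K4me3 peak within 1 kb of the TSS against mean TPM (log axis) for all genes above 1 TPM (grey) and the 7 barrier genes (red; a line joins replicates 1 and 2). CDSN and SPINK5 lie at 0, meaning no peak, with 369 and 267 TPM, and PLAU lies at 52.5 with 18.8 TPM.

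CDSN (scaffold00115, minus strand, 1442011 to 1446176 in the assembly made for the study) has 2 exons, and its nearest other TSS, that of C4H6orf15 (mean 0.283 TPM), lay 9.07 kb away. No reproducible H3K4me3 peak reached within 1 kb of its TSS, where 93.4% of genes with a mean above 100 TPM had one. Replicate 2 alone had a weak H3K4me3 peak over the TSS (3.18-fold) and replicate 1 alone one 1502 bp upstream (2.75-fold), and the nearest peak in both replicates lay 1.85 kb into the gene, with enrichments of 4.31 and 4.15 in replicates 1 and 2. The TSS itself was covered by an H3K27ac peak of 0.805 kb, with 6.46-fold and 6.62-fold enrichment. H3K27ac without H3K4me3 at the TSS was found in 1.37% of genes with a mean above 100 TPM. Further H3K27ac peaks lay 1.71 kb into the gene (8.003-fold and 8.06-fold), 1.25 kb upstream (6.16-fold and 6.15-fold) and 15965 bp upstream (7.03-fold and 11.4-fold). The last was the strongest H3K27ac-only peak of the 40 nearest to these genes.

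SPINK5 (scaffold00006, plus strand, 14040853 to 14106059, 29 exons) had the barest surroundings of the set. No reproducible H3K4me3 peak lay within 100 kb of its TSS, as in 0.473% of genes above 1 TPM, and the nearest was 107 kb away. None of the 451 genes of like TPM was without one. Replicate 1 alone had 1 H3K4me3 peak in the window and replicate 2 none. Of 3 reproducible H3K27ac peaks in the window, 1 had SPINK5 as the nearest TSS. It lay 9.67 kb upstream, with 4.47-fold and 4.62-fold enrichment. At the TSS, an H3K27ac peak was called in replicate 2 alone (3.06-fold). SPINK5 had 12247 reads in FP2. As for all genes here, the position of its TSS rests on a model carried over from another marsupial, the Tasmanian devil. A model of opposite strand, LOC116421683 (mean 0.142 TPM), starts inside it, 25.8 kb from its TSS.

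TGM3 (scaffold00002, minus strand, 329922983 to 329964505, 13 exons) carried many weak peaks. H3K4me3 at the TSS reached 6.77-fold and 8.59-fold in replicates 1 and 2, a mean of 7.68 against a median of 62.3 for genes of like TPM with a peak. A further 9 H3K4me3 peaks lay in the gene model 12.4 kb to 36.6 kb from the TSS, with mean enrichments of 3.10 to 4.71, each sharing bases with H3K27ac. H3K27ac formed 12 peaks in the gene model beyond 1 kb, at mean enrichments of 3.71 to 10.0, the strongest (11.7-fold and 8.32-fold) 14.3 kb from the TSS. In all, 19 H3K27ac peaks had TGM3 as the nearest TSS, the most of the 7 genes, and 9 of them were H3K27ac-only. The nearest other TSS, of LOC116421171 with 0 TPM, lay 52.0 kb away.

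AQP3 (scaffold00055, plus strand, 4294055 to 4301915, 6 exons) had a broad H3K4me3 peak of 4.10 kb over the TSS, with 23.1-fold and 19.9-fold enrichment. This was below the lower quartile of 40.5 of the 79 genes of like TPM that had a peak, and at the 25.0th percentile of all 88 such genes with those without a peak counted as 0. H3K27ac at the TSS differed between replicates, with 14.0-fold and 5.38-fold enrichment. Of the 14 H3K27ac peaks nearest to AQP3, 9 were H3K27ac-only, among them peaks 8.36 kb upstream (5.89-fold and 6.28-fold), 10.9 kb downstream of the TSS (6.77-fold and 6.28-fold) and 45.7 kb downstream (8.003-fold and 4.93-fold). The nearest other TSS was that of NOL6, a nucleolar protein gene with a mean of 37.4 TPM, at 45.8 kb.

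HOPX (scaffold00001, minus strand, 83571584 to 83608277, 5 exons) was marked weakly at the annotated TSS and strongly within the gene model. The H3K4me3 peak 0.023 kb from the TSS measured 0.345 kb and had 4.36-fold and 5.77-fold enrichment. A peak 4.07 kb into the gene had 28.4-fold and 25.6-fold enrichment, and a peak of 2.34 kb located 23.3 kb into the gene had 36.7-fold and 47.3-fold. Both internal peaks touched exons and shared bases with H3K27ac, at 22.5-fold and 11.3-fold for the first and 26.8-fold and 20.7-fold for the second. The level of H3K4me3 assigned to HOPX therefore depends on which TSS is taken. Upstream, 7 of 8 H3K27ac peaks were H3K27ac-only, out to 44.5 kb from the TSS, and the nearest other TSS, of LOC116419967 with 0 TPM, lay 60.8 kb away.

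CEBPA (scaffold00021, minus strand, 2592111 to 2594380) is a single-exon gene, and both marks covered its entire length. H3K4me3 formed a peak of 4.80 kb with 28.4-fold and 43.9-fold enrichment, and H3K27ac one of 6.66 kb with 11.6-fold and 17.6-fold. The peaks that had CEBPA as the nearest TSS lay on 1 side. Apart from those over the TSS, all 12 H3K4me3 and 14 H3K27ac peaks were downstream of the gene, from 3.94 kb to 66.3 kb and from 5.83 kb to 68.4 kb from the TSS. The H3K27ac peaks in this stretch summed to 23.5 kb. The strongest H3K27ac among them, 9.95 kb downstream, reached 11.1-fold and 7.57-fold, beside an H3K4me3 peak with 17.8-fold and 15.4-fold enrichment. The H3K4me3 peak nearest to the gene end (3.94 kb) had 5.48-fold enrichment in replicate 1, and its partner in replicate 2 is the wide peak over the TSS. CEBPG, the C/EBP gene with the nearest other TSS (mean 41.2 TPM), starts 89.1 kb away.

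PLAU (scaffold00002, minus strand, 135357393 to 135365601, 11 exons) had the lowest transcript level and the strongest marks at the TSS. H3K4me3 reached 32.3-fold and 72.7-fold in replicates 1 and 2, a spread of more than 2-fold, over 3.45 kb. The mean of 52.5 lay between the quartiles of 36.8 and 68.8 of genes of like TPM. H3K27ac at the TSS had 37.0-fold and 41.1-fold enrichment, against a median of 31.3 for the genes of like TPM with a peak. Beyond 1 kb, the 4 other H3K4me3 peaks nearest to PLAU had 2.91-fold to 4.32-fold enrichment in replicate 1, and 4 of its 10 H3K27ac peaks were H3K27ac-only. The window also held strong and wide peaks nearer to other genes, and the nearest other TSS, of LOC116421944 with 0 TPM, lay 55.0 kb away.

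**Figure D4:**
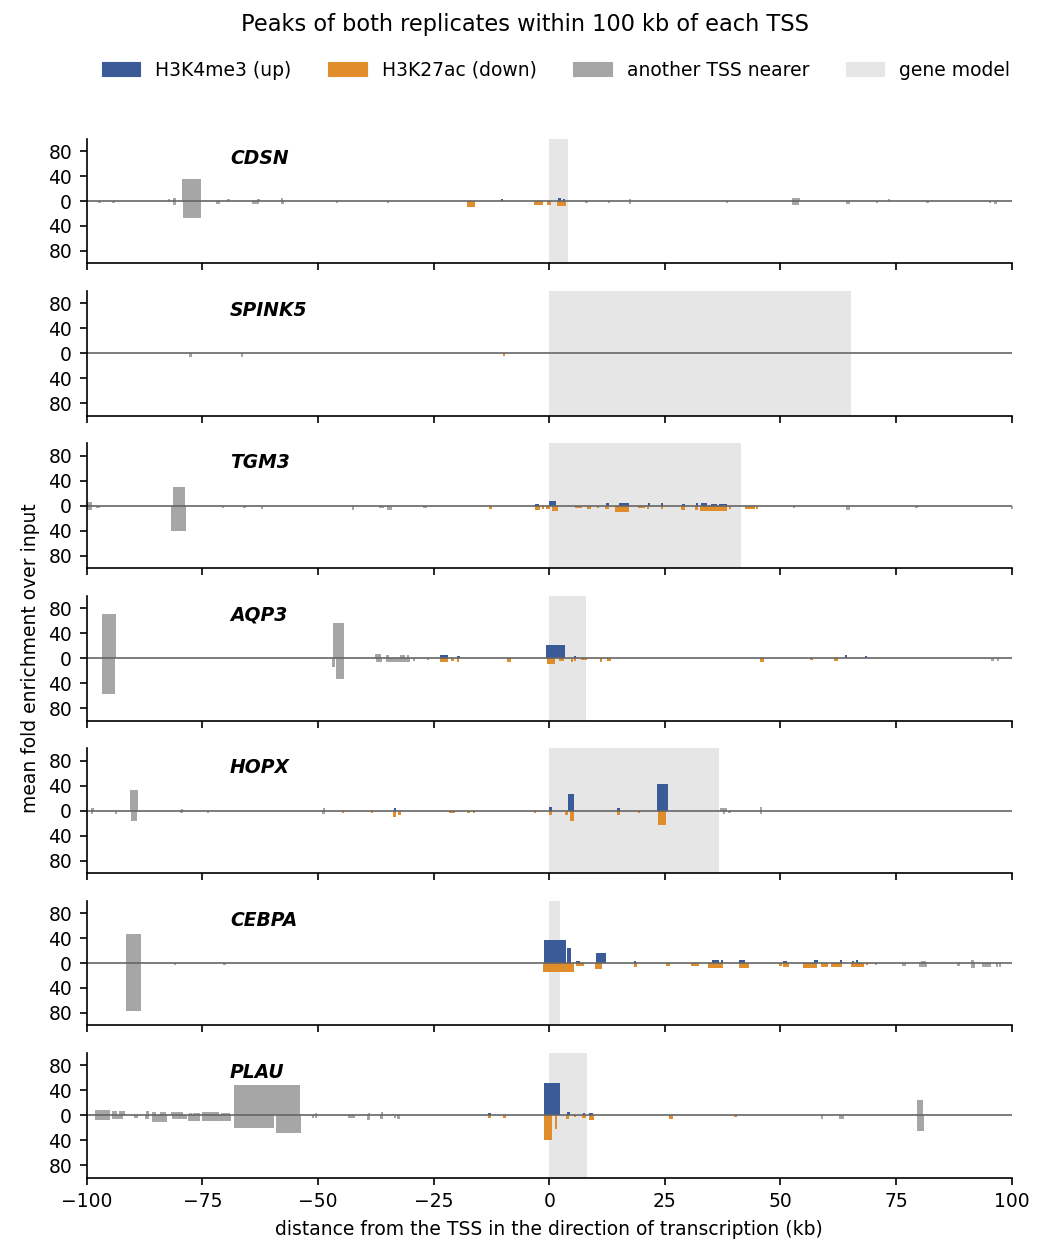
Reproducible peaks within 100 kb of each TSS, by distance in the direction of transcription (kb), with H3K4me3 above and H3K27ac below the line and height as the mean fold enrichment of both replicates. Grey peaks lie nearer to another TSS and pale bands mark the gene models; SPINK5 has no H3K4me3 peak, HOPX has its strongest peak 23.3 kb into the gene, and the CEBPA peaks extend to 68.4 kb downstream.

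Across the set, transcript level and the H3K4me3 level at the TSS ran in different orders. PLAU, CEBPA and AQP3 had 52.5-fold, 36.2-fold and 21.5-fold enrichment with 18.8, 128 and 896 TPM, and TGM3 and HOPX had 7.68-fold and 5.06-fold with 130 and 195 TPM. CDSN and SPINK5, with no peak within 1 kb, had 369 and 267 TPM. The 40 H3K27ac-only peaks nearest to the 7 genes were similar in strength to those of the whole series, with a median enrichment of 4.54-fold and a median length of 0.562 kb against 4.22-fold and 0.489 kb over 69124 peaks. They were unevenly spread, with 9 each at TGM3, AQP3 and HOPX, 5 at CEBPA, 4 at PLAU, 3 at CDSN and 1 at SPINK5.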

How the data were processed

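The authors sequenced ChIP and stranded mRNA libraries and aligned them to their own de novo dunnart assembly, with Bowtie2 2.3.5.1 for ChIP-seq and HISAT2 2.21 for RNA-seq (labels and methods). The deposited counts are raw reads per gene from featureCounts (Subread 2.0.1), summed over the exons of Tasmanian devil gene models moved to the assembly; 3 of 3 library columns could be tied to the RNA group but not to a numbered sample. The deposited peaks come from MACS2 2.1.1 per replicate against its own input, with the fold enrichment (a ratio), -log10 p-value and q-value, and a score; the score and p-value were not used. The gene table has 11 models broken over lines, whose counts were left out.

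The deposited exon length was used to turn counts into TPM. TMM and size factors came from edgeR and DESeq2, and were used only for rescaling. The TSS is the outermost exon end of a model, a peak distance is measured from its nearest edge, and overlaps used bedtools. A peak of replicate 1 keeps its own interval and takes as partner the replicate 2 peak with the largest overlap, so that several may share 1 partner. Poisson intervals are exact and cover counting error only. Scripts were tested on simulated data.

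The genes and the gene lists were chosen with earlier results of these data known. The text names the 8 genes, the 2 most abundant members and the absent or unexpressed defining members of each list, the gene of the nearest other TSS, and the 3 genes nearest in pattern. Of the genes selected in this way, 1 is not reported here. No sequence is printed, since no genome of the assembly was used here. No comparison between groups was made, because there is 1 condition; the libraries come from separate pools, and their spread may be technical in part.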

Additional observations from a re-analysis of the deposited data

How the results depend on the processing

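All 7 genes stayed above 1 TPM under each scaling tried, and all 7 passed a threshold of 10 TPM. The mean TPM of each gene moved by less than its SD under each scaling. Leaving out 1 library cannot lower the count of 7, and cannot move a mean of 3 libraries by as much as its SD. The leave-one-out sets therefore could not decide either point. Leaving out FP2 had the largest effect on CDSN, SPINK5, TGM3 and CEBPA, with means of 206, 163, 85.8 and 82.5 TPM. The number of genes highest in FP2 was 4 after TMM or DESeq2 size factors, against 5. The number with H3K4me3 within 1 kb was 5 to 6 over the single replicates and 6 within 3 kb, where CDSN was added. The count of genes with H3K4me3 below the lower quartile of like genes was 6 in replicate 2 alone, 7 in replicate 1 alone and 6 within 5 kb, alternatives added after the data were seen. At q below 1e-05, the windows held 38 H3K4me3, 95 H3K27ac and 57 H3K27ac-only peaks, and with windows of 50 kb 47, 94 and 51. With H3K4me3 of any replicate excluded, also added after the data were seen, 49 H3K27ac-only peaks lay in the windows and 20 had a member of the set as the nearest TSS. Other overlap rules and q below 0.01 kept every count within 1.5-fold. From 1 replicate alone, the windows held 120 to 123 H3K4me3, 197 to 202 H3K27ac and 101 H3K27ac-only peaks, of which 42 to 43 were nearest to the set. The planned description of promoter sequences was not run. No paired analysis was possible because there is a single condition and no test was made. The peak files hold no read depth, so its effect on weak peaks could not be given, and the small SDs of 3 libraries are themselves uncertain.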
